A study of Mus musculus with 28 samples.

Results

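The fibril-forming collagens of mouse tail tendon were followed through 10 genes, Col1a1, Col1a2, Col2a1, Col3a1, Col5a1, Col5a2, Col5a3, Col11a1, Col11a2 and Col27a1, chosen as members of 1 gene family. They were 10 of the 25719 gene identifiers counted, and all 10 were tested in every comparison. The annotation holds 11 genes of this family. The one left out, Col24a1, was expressed at means of 5.77 to 11.7 CPM (counts scaled to library size) in the 4 groups. Bulk RNA-sequencing was performed on tail tendon fascicles of 28 C57BL/6 mice, with 1 library per mouse. In Fosl-2(Tg) mice, a transgene of mouse Fosl2 joined to eGFP sits at a random site and is driven by H2Kb, a major histocompatibility complex class I promoter. The WT mice lack the transgene and were bred alongside. That promoter is active in most nucleated cells, so the transgene is not limited to tendon. The early cohort, 6 to 8 weeks old, comprised 7 WT and 8 Fosl-2(Tg) mice, all male, and the established cohort, older than 14 weeks, comprised 6 WT and 7 Fosl-2(Tg) mice, with 1 male in each genotype and 11 females in all. Age and sex could therefore hardly be told apart between the cohorts.

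Fibril-forming collagens share a long uninterrupted triple helix that packs side by side into the banded fibrils that give tendon its tensile strength. Type I collagen, a trimer of Col1a1 and Col1a2 chains, makes up the bulk of the tendon fibril, and type III collagen (Col3a1) co-assembles with it, particularly in young and healing tendon. Types V (Col5a1, Col5a2, Col5a3) and XI (Col11a1, Col11a2) are minor collagens that nucleate fibrils and limit their diameter. Type II collagen (Col2a1) is the main fibrillar collagen of cartilage, and its gene also supplies a chain of type XI, while Col27a1 encodes a fibrillar collagen best known from cartilage.

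On the mouse assembly GRCm39, Col1a1 (ENSMUSG00000001506) lies on chromosome 11 from 94827050 to 94843868 and Col1a2 (ENSMUSG00000029661) on chromosome 6 from 4504814 to 4541555, both on the plus strand. The canonical transcript of Col1a2 starts inside the annotated span, at 4505493. Col2a1 (ENSMUSG00000022483) is on the minus strand of chromosome 15 from 97873483 to 97902689. Col11a1 (ENSMUSG00000027966) occupies chromosome 3 from 113824134 to 114014367, and Col11a2 (ENSMUSG00000024330) chromosome 17 from 34258108 to 34285664, both on the plus strand. Col3a1 (ENSMUSG00000026043, plus strand, 45350698 to 45395840) and Col5a2 (ENSMUSG00000026042, minus strand, 45412554 to 45542442) are neighbours on chromosome 1 that point towards each other, 16713 bases apart. The remaining genes are Col5a1 (ENSMUSG00000026837) on chromosome 2, Col5a3 (ENSMUSG00000004098) on chromosome 9 and Col27a1 (ENSMUSG00000045672) on chromosome 4. The strand setting of the counting was not stated, so reads of annotated RNAs that overlap these genes on the opposite strand could not be told apart from theirs. The annotation holds such RNAs for Col1a2, Col2a1, Col3a1, Col5a1, Col5a3, Col11a1 and Col27a1.

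The 250 bases upstream of the annotated start of the canonical transcript are printed for the 4 genes that passed the threshold in the established cohort, read 5′ to 3′ on the gene's strand from GRCm39 with the starts of GENCODE release M39. Capitals mark the CCAAT box, the GC box core GGGCGG, the TATA box TATAAA or the AP-1 site TGANTCA, in which N is any base, in either orientation, so that ATTGG is a CCAAT on the other strand, and overlapping matches run together.
Col1a1 (chr11:94826800-94827049, plus strand): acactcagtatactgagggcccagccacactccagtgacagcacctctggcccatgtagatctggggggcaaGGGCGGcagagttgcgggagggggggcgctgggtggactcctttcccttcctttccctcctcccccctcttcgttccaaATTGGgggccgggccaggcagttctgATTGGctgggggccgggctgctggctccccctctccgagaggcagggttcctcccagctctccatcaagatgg
Col1a2 (chr6:4505243-4505492, plus strand): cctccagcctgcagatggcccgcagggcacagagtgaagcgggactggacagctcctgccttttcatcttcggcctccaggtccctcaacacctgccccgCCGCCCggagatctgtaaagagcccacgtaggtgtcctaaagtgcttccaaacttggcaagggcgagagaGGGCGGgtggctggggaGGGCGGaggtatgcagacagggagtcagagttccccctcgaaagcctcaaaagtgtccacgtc
Col2a1 (chr15:97902690-97902939, minus strand): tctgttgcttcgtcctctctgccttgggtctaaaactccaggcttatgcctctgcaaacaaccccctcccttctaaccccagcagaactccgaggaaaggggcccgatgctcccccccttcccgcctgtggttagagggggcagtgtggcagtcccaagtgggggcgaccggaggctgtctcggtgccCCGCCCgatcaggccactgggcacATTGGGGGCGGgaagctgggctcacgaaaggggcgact
Col11a1 (chr3:113823884-113824133, plus strand): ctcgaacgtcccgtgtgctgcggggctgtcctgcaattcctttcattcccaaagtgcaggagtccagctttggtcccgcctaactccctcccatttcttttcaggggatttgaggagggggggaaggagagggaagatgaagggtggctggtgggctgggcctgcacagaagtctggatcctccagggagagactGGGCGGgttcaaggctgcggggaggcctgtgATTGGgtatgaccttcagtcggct
CCAAT, the box bound by the factor NF-Y, occurred in 4 of the 10 windows, against 36.5% of 21770 windows of protein-coding genes. Col1a1 held it at bases -99 to -95 and -73 to -69 from the start, Col2a1 at -38 to -34 and Col11a1 at -24 to -20. GGGCGG, the core of the GC box, occurred in 8 of the 10 windows (36.3% of all) and was absent from those of Col3a1 and Col5a2. TATAAA was found in 2 windows (11.9% of all), at -117 to -112 in Col3a1 and -147 to -142 in Col11a2. TGANTCA, the AP-1 site to which Fosl-2 dimers can bind, was found in 0 of 10 (6.17% of all). These are letter matches in a short window and say nothing about binding. The windows depend on the annotated starts and end there, so a missing match does not show that a promoter lacks the element.

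Library totals ranged from 9645598 to 66894396 counts. Every level is in CPM after TMM scaling of all 28 libraries, and a gene was called at a Benjamini-Hochberg adjusted p (FDR) of at most 0.05 in edgeR's quasi-likelihood test over all genes tested. Fosl2 itself was at 58.8 to 136 CPM in early WT, 63.4 to 156 in early Fosl-2(Tg), 78.1 to 169 in established WT and 121 to 160 in established Fosl-2(Tg) mice, so the genotypes overlapped and it was not called (FDR = 0.918 early and 0.141 established by edgeR). The 8 tendon markers were present in every mouse, with a summed level of 19897 to 41856 CPM in the 3 other groups and 1825 to 28963 CPM in established Fosl-2(Tg) mice. The sum was lowest in Fosl-2(Tg) replicate 5 of that group, followed by 8505 CPM in replicate 1. In the established cohort all 8 tendon markers had a log2 fold change below 0 (median -1.22), and 3 of them, Scx, Tnmd and Cilp2, were called lower. Summed skeletal muscle markers varied from 65.1 to 21842 CPM over all mice, while bone, keratinocyte and adipocyte markers summed to 12.7 CPM at most. In the established cohort erythroid markers summed to 8.94 to 20.1 CPM in WT and 10.2 to 126 CPM in Fosl-2(Tg) mice, with 4 of 4 tested genes above 0 (median log2 fold change 2.38). Schwann cell markers summed to 25.6 to 85.4 CPM in WT and 35.9 to 261 CPM in Fosl-2(Tg) mice, with 3 of 3 tested above 0 (median 0.83), and endothelial markers to 4.55 to 46.4 and 3.53 to 23.2 CPM, with 4 of 4 below 0 (median -0.53). None of these erythroid, Schwann cell and endothelial genes was called, and their part in the collagen results was not tested. In bulk tissue, fewer cells of a type and less RNA per cell cannot be told apart.

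Type I collagen supplied most of the fibrillar collagen counts in every mouse, and fibrillar collagens took the smallest share of all counts in the established Fosl-2(Tg) mice. All 10 genes together held 16.7 to 38.4% of counts in early WT mice (median 18.7%) and 19.4 to 40.8% in early Fosl-2(Tg) mice (median 31.6%). They held 8.28 to 16.5% in established WT mice (median 12.7%) and 0.34 to 5.89% in established Fosl-2(Tg) mice (median 2.56%). Every established Fosl-2(Tg) mouse therefore lay below every mouse of the other 3 groups. Col1a1 and Col1a2 supplied 96.3 to 98.0% of the fibrillar collagen counts in established WT mice and 74.8 to 96.0% in established Fosl-2(Tg) mice. The part that came from the other 8 genes was 1.95 to 3.67% in established WT mice and 3.99 to 25.2% in established Fosl-2(Tg) mice, with medians of 2.47 and 8.89%, and in the early cohort the medians were 2.08% in WT and 1.59% in Fosl-2(Tg) mice. These shares sum over the genes and were not tested.

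**Figure D1:**
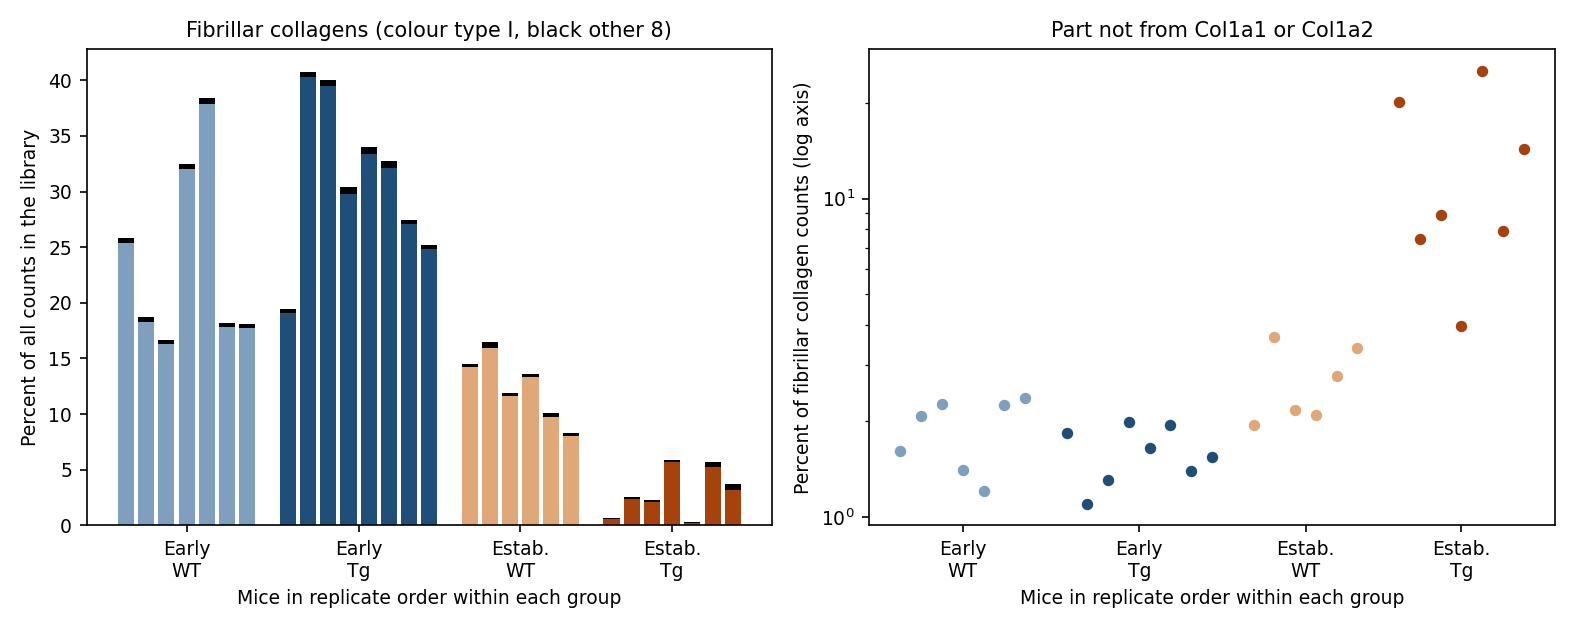
Left, percent of all counts in each library held by Col1a1 and Col1a2 (coloured) and by the other 8 fibrillar collagen genes (black); right, the part of the fibrillar collagen counts that did not come from Col1a1 or Col1a2, on a log axis, with 1 bar or point per mouse. The 7 established Fosl-2(Tg) mice hold the lowest shares, 0.34 to 5.89%, and the highest part outside type I, 3.99 to 25.2%.

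In the established cohort, the major fibril collagen fell in Fosl-2(Tg) tendons. Col1a1 lay at 44271 CPM in the lowest, a median of 74362 and 100124 CPM in the highest WT mouse, and at 989, 10241 and 28261 CPM likewise in Fosl-2(Tg) mice, so the groups did not overlap. Its mean was 73458 ± 20113 CPM (n = 6, SD) in WT and 12955 ± 10509 CPM (n = 7, SD) in Fosl-2(Tg) tendons. The fitted log2 fold change of Col1a1 was -2.50 (standard error, SE, of 0.63 and FDR = 0.0356 by edgeR). Col1a2 followed it closely, from 28782 to 53691 CPM in WT mice (median 41569) and from 786 to 19131 CPM in Fosl-2(Tg) mice (median 6886), again without overlap. The log2 fold change of Col1a2 was -2.23 (SE 0.57, FDR = 0.0367 by edgeR). The spread was far wider in Fosl-2(Tg) mice, where the highest Col1a1 level was 28.6 times the lowest, against 2.26 times in WT mice. Fosl-2(Tg) replicates 5 and 1 were lowest, with 989 and 1868 CPM of Col1a1, and replicate 4 was highest. Replicate 5 was the 1 male of its group, as was replicate 5 among the WT mice. In females alone 3 genes, Col1a1, Col1a2 and Col2a1, were called, where 359 of 15853 genes tested were called lower. Replicates 5 and 1 of the Fosl-2(Tg) mice had the lowest tendon marker sums, and replicate 4 the highest. Skeletal muscle markers were highest in replicate 5 (7111 CPM) and lowest in replicate 4 (65.1 CPM). Muscle markers and Col1a1 were at 3998 and 14670 CPM in replicate 7 and at 1070 and 1868 CPM in replicate 1. They were at 470 and 10241 CPM in replicate 2, 357 and 9787 CPM in replicate 3, and 205 and 24866.5 CPM in replicate 6. All 12 muscle markers had a log2 fold change below 0 in this cohort and none was called. Of 9 macrophage markers 0 were below 0 (median 0.25), and 1, Cd163, was called higher. In the early cohort 9 of the 9 were below 0 (median -0.38) and 0 were called. With a skeletal muscle score as covariate, 5 fibrillar collagen genes were called in the established cohort. Col11a2 was among them (log2 fold change -1.86, FDR = 0.0186 by edgeR). Over all genes tested, 951 of 15862 were called lower with that covariate, against 534 without it. With scaling without the skeletal muscle markers, 4 fibrillar collagen genes were called, and 534 of all genes tested were called lower. The part of tendon cells and macrophages in the result was not tested.

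Of the 10 genes, 4 were called in the established cohort, all lower: Col1a1, Col1a2, Col2a1 and Col11a1. Over all genes tested, 3.37% were called lower, and the median log2 fold change was 0.01 against -1.20 for the 10 genes. A total of 6 of the 10 had an unadjusted p under 0.05. Levels of Col1a1, Col1a2 and Col2a1 in every Fosl-2(Tg) mouse were below those in every WT mouse, a pattern that 2.33% of all genes tested showed. The calls stood close to the threshold: without 1 mouse at a time, Col1a1 kept its call in 5 of 13 fits, Col1a2 in 4, Col11a1 in 3 and Col2a1 in 13. Leaving out Fosl-2(Tg) replicate 1, 2 or 3 or WT replicate 1, 2, 4, 5 or 6 ended the call of Col1a1, with log2 fold changes of -2.61 to -2.31 and an FDR of up to 0.0715 by edgeR in those fits.

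Among the collagens of the type II and XI group, Col2a1 fell from 19.0 to 37.1 CPM in WT mice (median 28.9) to 2.96 to 17.7 CPM in Fosl-2(Tg) mice (median 8.18), without overlap and with 41 to 2543 counts behind each value. Its log2 fold change was -1.63 (SE 0.35, FDR = 0.0207 by edgeR). Of the 12 cartilage markers, Matn1, Col9a1, Col9a2 and Cnmd did not exceed 0.824 CPM in any mouse, whereas Acan reached 38.5 CPM, Matn3 33.5 CPM and Epyc 52.4 CPM, each in the early cohort. The summed cartilage list lay at 53.0 to 82.8 CPM in WT and 19.1 to 55.9 CPM in Fosl-2(Tg) mice. In the established cohort 8 of the 12 were tested, and only 3 of these 8 had a log2 fold change below 0 (median 0.28). Matn3 was called lower and Cnmd higher, both named after their values were seen. The part of the cartilage genes in the level of Col2a1 was not tested. Col11a1, a chain of type XI collagen, lay between 368 and 518 CPM in WT mice (median 402). In Fosl-2(Tg) mice it lay between 34.5 and 383 CPM (median 108), with 6 of 7 mice below every WT mouse and only replicate 6 within the WT range. The log2 fold change of Col11a1 was -1.46 (SE 0.41, FDR = 0.0483 by edgeR). Its partner chain Col11a2 had a similar log2 fold change of -1.42 (SE 0.46) but did not pass the threshold (FDR = 0.0749 by edgeR), at 456 to 805 CPM in WT and 28.2 to 502 CPM in Fosl-2(Tg) mice. There too 6 of 7 Fosl-2(Tg) mice were below every WT mouse. With the DESeq2 test that the authors used, Col11a2 passed as well (FDR = 0.0128). That test called 1132 of 18592 genes lower, against 534 of 15862 by edgeR.

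Type III, type V and Col27a1 did not pass the threshold in the established cohort. Col3a1 lay at 481 to 2862 CPM in WT mice (median 647) and at 178 to 2326 CPM in Fosl-2(Tg) mice (median 447), a log2 fold change of -0.23 (SE 0.62, FDR = 0.840 by edgeR). WT replicate 2 alone exceeded 870 CPM among the controls, and without it the log2 fold change was 0.44 (FDR = 0.672 by edgeR). Fosl-2(Tg) replicates 6 and 7, at 1762 and 2326 CPM, stood above the remaining 5 mice, which did not exceed 521 CPM. Col5a1, the type V chain present in all type V trimers, had 410 to 871 CPM in WT and 180 to 664 CPM in Fosl-2(Tg) mice (log2 fold change -0.54, SE 0.26, FDR = 0.195 by edgeR). Col5a2, its usual partner, had 237 to 722 CPM in WT and 162 to 492 CPM in Fosl-2(Tg) mice (log2 fold change -0.22, SE 0.32, FDR = 0.681 by edgeR). Here too WT replicate 2 was the highest mouse, and without it the log2 fold change of Col5a2 was 0.14 (FDR = 0.754 by edgeR). Col5a3, the least abundant type V chain, was at 95.1 to 156 CPM in WT and 9.82 to 114 CPM in Fosl-2(Tg) mice, with a log2 fold change of -0.98 (SE 0.40, FDR = 0.138 by edgeR). Col27a1 was low throughout, at 13.2 to 22.6 CPM in WT and 3.10 to 51.4 CPM in Fosl-2(Tg) mice, and its log2 fold change was 0.05 (SE 0.48, FDR = 0.961 by edgeR), which reached -0.52 without Fosl-2(Tg) replicate 7, the highest mouse. Col24a1, left out of the set, had a mean of 5.77 CPM in WT and 7.61 CPM in Fosl-2(Tg) mice of this cohort, with medians of 5.44 and 4.89 CPM.

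**Figure D2:**
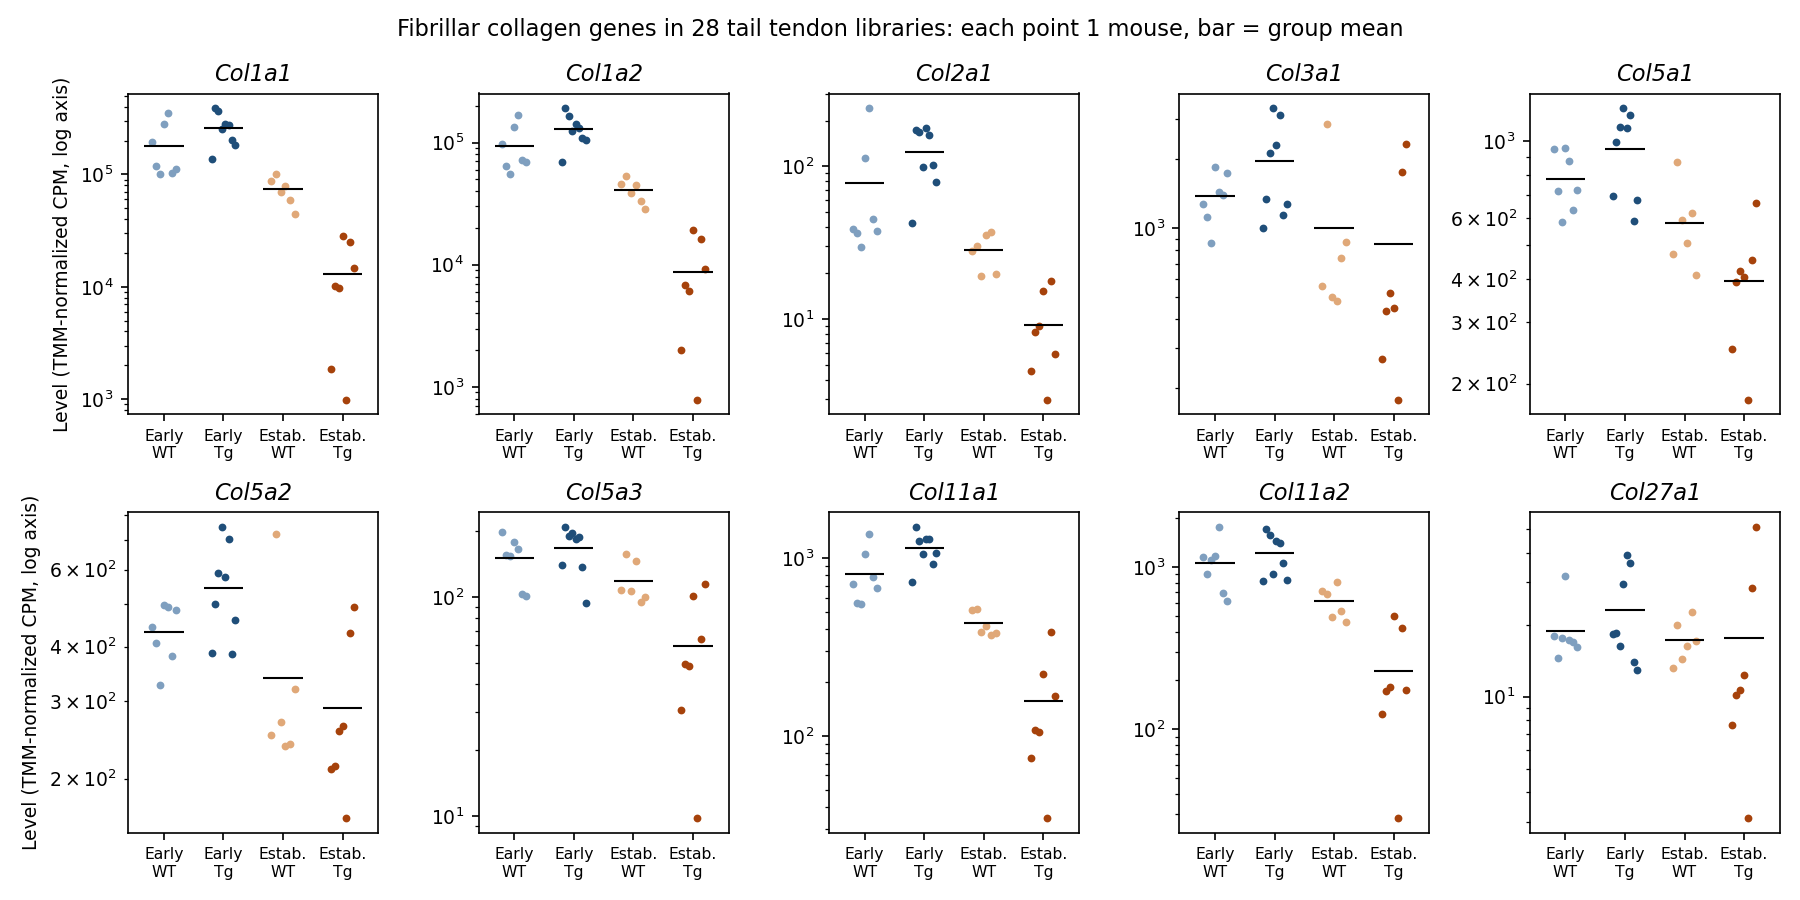
TMM-normalized CPM (log axis) of each fibrillar collagen gene in the 28 mice, with 1 point per mouse in replicate order, early and established (Estab.) WT and Fosl-2(Tg) mice side by side, and a bar at each group mean. Established Fosl-2(Tg) mice lie below established WT mice for Col1a1, Col1a2 and Col2a1 and overlap with them for the other 7 genes, with replicate 5 the lowest of its group for all 10.

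In the early cohort, 0 of the 10 genes were called, and 0.0396% of all genes tested were called in either direction. Fitted log2 fold changes were above 0 for all 10, from 0.14 for Col5a3 to 0.68 for Col2a1, with a median of 0.39 against -0.01 over all genes tested. FDRs lay between 0.767 and 0.921, and Col11a1 (log2 fold change 0.49, unadjusted p = 0.0249 by edgeR) and Col5a2 (0.33, unadjusted p = 0.0444 by edgeR) were the 2 genes with an unadjusted p under 0.05. DESeq2 also called 0 of the 10. Col1a1 ranged from 101056 to 350403 CPM in WT mice (median 119461) and from 137221 to 389120 CPM in Fosl-2(Tg) mice (median 265259), with wide overlap. Its log2 fold change was 0.53 (SE 0.34, FDR = 0.853 by edgeR). Among the WT mice, replicate 4 and replicate 5 had the highest Col1a1 levels. Col3a1 ranged from 860 to 1850 CPM in WT and from 1004 to 3345 CPM in Fosl-2(Tg) mice (log2 fold change 0.50, SE 0.26, FDR = 0.834 by edgeR). The 10 genes vary together between mice, so their common sign is not 10 separate observations.

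**Figure D3:**
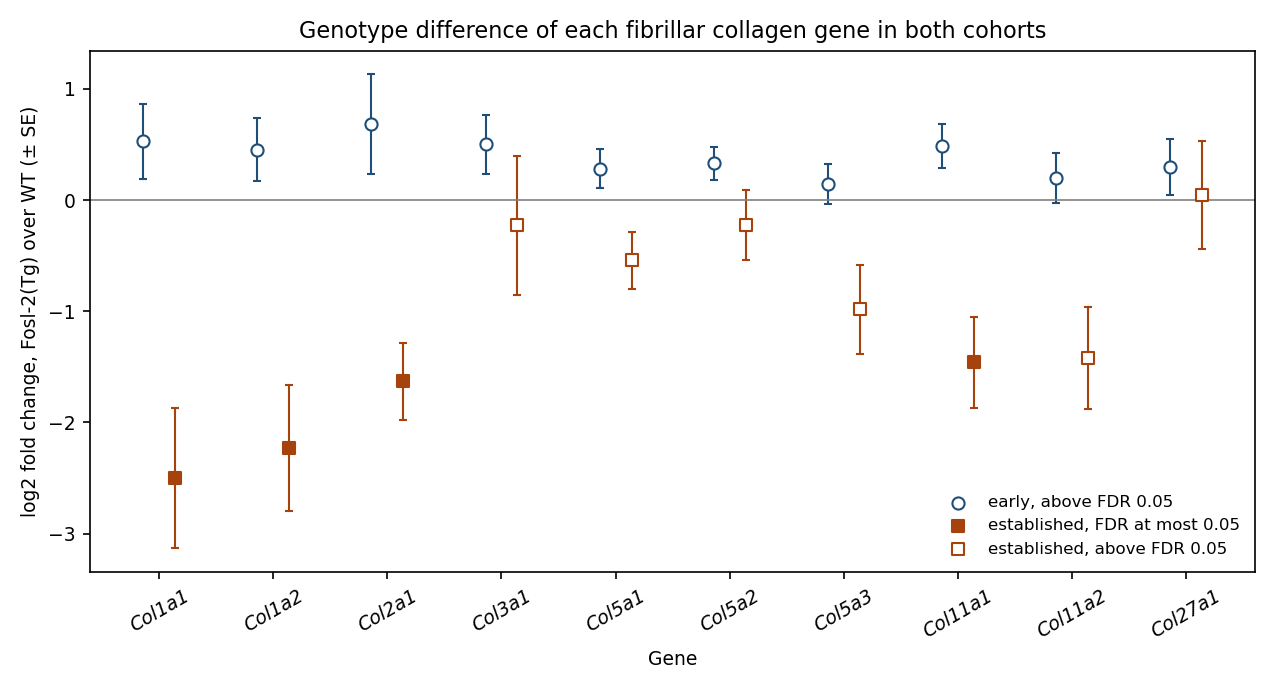
Log2 fold change of Fosl-2(Tg) over WT tendons for each fibrillar collagen gene in the early (circles) and established (squares) cohorts, with bars of 1 standard error from edgeR and filled symbols for an FDR of at most 0.05. Early values lie between 0.14 and 0.68, and established values fall to -2.50 for Col1a1, with 4 filled squares.

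The genotype difference itself was compared between cohorts by an interaction term in one fit of the 4 groups, in which a negative value means that the difference was lower in the established cohort. A total of 5 of the 10 genes were called, all negative, where 4.00% of all genes tested were called negative. The difference was -3.04 on the log2 scale for Col1a1 (SE 0.72, FDR = 0.0130 by edgeR) and -2.69 for Col1a2 (SE 0.63, FDR = 0.0128). Col2a1 had -2.32 (FDR = 0.0245 by edgeR), Col11a1 -1.95 (FDR = 0.0127) and Col11a2 -1.63 (FDR = 0.0498). Without 1 mouse at a time, Col11a2 kept its call in 7 of 28 fits, with an FDR of up to 0.0797, and the other 4 genes in 28 of 28. Col5a1 and Col5a3 did not pass (-0.83 and -1.14, FDR = 0.0983 and 0.101 by edgeR), nor did Col3a1, Col5a2 and Col27a1, whose values were -0.74, -0.56 and -0.26. Without Fosl-2(Tg) replicates 1 and 5 of the established cohort, a choice made after their levels were seen, 3 genes were called, and Col2a1 and Col11a2 were not. Over all genes tested, 378 of 16150 were then called negative. Since the cohorts differ in sex as well as in age, the contributions of both to this contrast cannot be told apart. Without the 2 established males, 4 genes were called, and Col2a1 was not (-2.08, FDR = 0.0562 by edgeR). In that fit 433 of 16118 genes tested were called negative.

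Between the cohorts, which differ in age and sex, fibrillar collagens were called lower in established than in early Fosl-2(Tg) mice and were not called in WT mice. These contrasts share mice with the genotype comparisons. In WT mice, 0 of 10 genes were called, while 3.48% of all genes tested were called lower. All 10 log2 fold changes were below 0, with 5 unadjusted p under 0.05, from -1.46 for Col2a1 (SE 0.46, FDR = 0.0552 by edgeR) and -1.29 for Col1a1 (SE 0.53, FDR = 0.144) to -0.13 for Col27a1. Col1a1, Col1a2 and Col11a1 were nonetheless lower in every established than in every early WT mouse, as were 1.22% of all genes tested. DESeq2 called 4 of the 10, namely Col1a1, Col1a2, Col2a1 and Col11a1, with FDRs of 0.0252 to 0.0477. Over all genes tested, it called 929 of 18455 lower, against 560 of 16082 by edgeR. In Fosl-2(Tg) mice, 9 of 10 genes were called lower in the established cohort, against 22.0% of all genes tested. The fall was largest for Col1a1 (log2 fold change -4.33, SE 0.56), Col1a2 (-3.90, SE 0.49) and Col2a1 (-3.78, SE 0.47), followed by Col11a1 (-2.87) and Col11a2 (-2.42). These 5 genes were lower in every established than in every early Fosl-2(Tg) mouse, a pattern shown by 8.03% of all genes tested. Col3a1, Col5a1, Col5a2 and Col5a3 fell by 1.20, 1.26, 0.91 and 1.48 on the log2 scale. The call of Col3a1 held in 8 of 15 fits without 1 mouse (FDR of up to 0.0683 by edgeR), and Col27a1 (-0.39, FDR = 0.402 by edgeR) was not called.

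Ratios of 2 collagen genes within a library do not depend on how libraries are scaled, and 14 of them were compared between genotypes in each cohort by an exact permutation test over mice, two-sided, with Benjamini-Hochberg adjustment over all 28. In the established cohort 10 of 14 ratios passed the adjusted threshold when group means were compared, and 0 of 14 when group medians were (exact permutation test, adjusted p of at least 0.0544). Each of the other 9 genes was higher per Col1a1 count in Fosl-2(Tg) tendons. Col1a1 had the lowest log2 fold change of the 10 genes (-2.50), against a median of 0.01 over all genes tested. A gene that fell less than Col1a1 is higher by this measure, and genes outside the family were not compared with Col1a1 in this way. There were 0.605 to 2.86 Col3a1 counts for 100 Col1a1 counts in WT mice (median 0.981) and 1.58 to 18.0 in Fosl-2(Tg) mice (median 7.09), a mean difference of 6.48-fold (exact permutation test, p = 0.0035, adjusted p = 0.014). Only Fosl-2(Tg) replicate 4 lay within the WT range of that ratio. The ratio of Col5a2 to Col1a1 differed most, although Col5a2 itself was not called (log2 fold change -0.22). For 100 of Col1a1 there were 0.285 to 0.725 Col5a2 counts in WT mice and 0.935 to 16.4 in Fosl-2(Tg) mice, without overlap (7.84-fold, exact permutation test, adjusted p = 0.00816). Per Col1a1 count, Col27a1 (6.62-fold), Col5a1 (5.89-fold), Col5a3 (3.66-fold) and Col11a2 (2.54-fold) were likewise higher in every Fosl-2(Tg) than in every WT mouse. Groups overlapped for Col11a1 (2.59-fold, exact permutation test, adjusted p = 0.0136) and Col2a1 (2.55-fold, adjusted p = 0.031). All 9 ratios share the counts of Col1a1, so they are not separate observations. Without 1 mouse at a time, 7 of these 9 kept their call in 13 of 13 tests, Col1a2 in 12 and Col2a1 in 8. In females alone, Col2a1 per Col1a1 did not pass (exact permutation test, adjusted p = 0.053). Nor did it pass without Fosl-2(Tg) replicates 1 and 5, a choice made after seeing the data (exact permutation test, adjusted p = 0.0848).

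Within type I collagen itself, the balance of chains also differed in the full established cohort, but did not pass in females alone (exact permutation test, adjusted p = 0.0539). Established WT mice had 51.7 to 65.0 Col1a2 counts for 100 Col1a1 counts (median 55.6), and Fosl-2(Tg) mice had 62.7 to 108 (median 67.2), a mean difference of 1.28-fold (exact permutation test, p = 0.00466, adjusted p = 0.0163). WT replicate 6, at 65.0, was the one control within the Fosl-2(Tg) range, and Fosl-2(Tg) replicate 1 was the highest mouse. Among the minor collagens, Col11a1 fell against Col5a1, from 59.5 to 108 counts for 100 in WT mice (median 73.7) to 19.2 to 84.2 in Fosl-2(Tg) mice (median 27.6), a 2.27-fold difference (exact permutation test, adjusted p = 0.0272) that did not pass without WT replicate 1 or 6 (adjusted p = 0.0707 and 0.0589, exact permutation test). Col11a1 per Col5a1 also did not pass in females alone (exact permutation test, adjusted p = 0.0606) or without Fosl-2(Tg) replicates 1 and 5 (adjusted p = 0.0808). The chains of type V did not differ among themselves beyond the adjusted threshold. The log2 difference was 0.41 for Col5a2 per Col5a1 (exact permutation test, adjusted p = 0.14) and -0.69 for Col5a3 per Col5a1 (exact permutation test, adjusted p = 0.0816). Col11a1 and Col11a2 per Col2a1 had log2 differences of 0.03 and -0.01, with standard deviations between mice of 0.32 to 0.59 (exact permutation test, p = 0.922 and p = 0.981). In the early cohort 0 of 14 ratios passed after adjustment. Those with an unadjusted p under 0.05 were Col11a2 per Col1a1 (1.32-fold lower in Fosl-2(Tg) mice, exact permutation test, p = 0.035, adjusted p = 0.0816) and Col11a2 per Col2a1 (1.70-fold lower, exact permutation test, p = 0.0396, adjusted p = 0.0854). The number past the adjusted threshold was 6 of 14 without early WT replicate 5, 2 without early WT replicate 4 and 1 without early Fosl-2(Tg) replicate 1. Within the 7 same-numbered early pairs, a comparison added after seeing the data, 0 of 14 passed, and Col11a2 per Col2a1 was lower in Fosl-2(Tg) mice in 6 of 7 pairs (exact sign-flip permutation test, p = 0.0312, adjusted p = 0.0795, where the lowest possible p is 0.0156). Whether a ratio's genotype difference itself differed between cohorts was not tested.

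**Figure D4:**
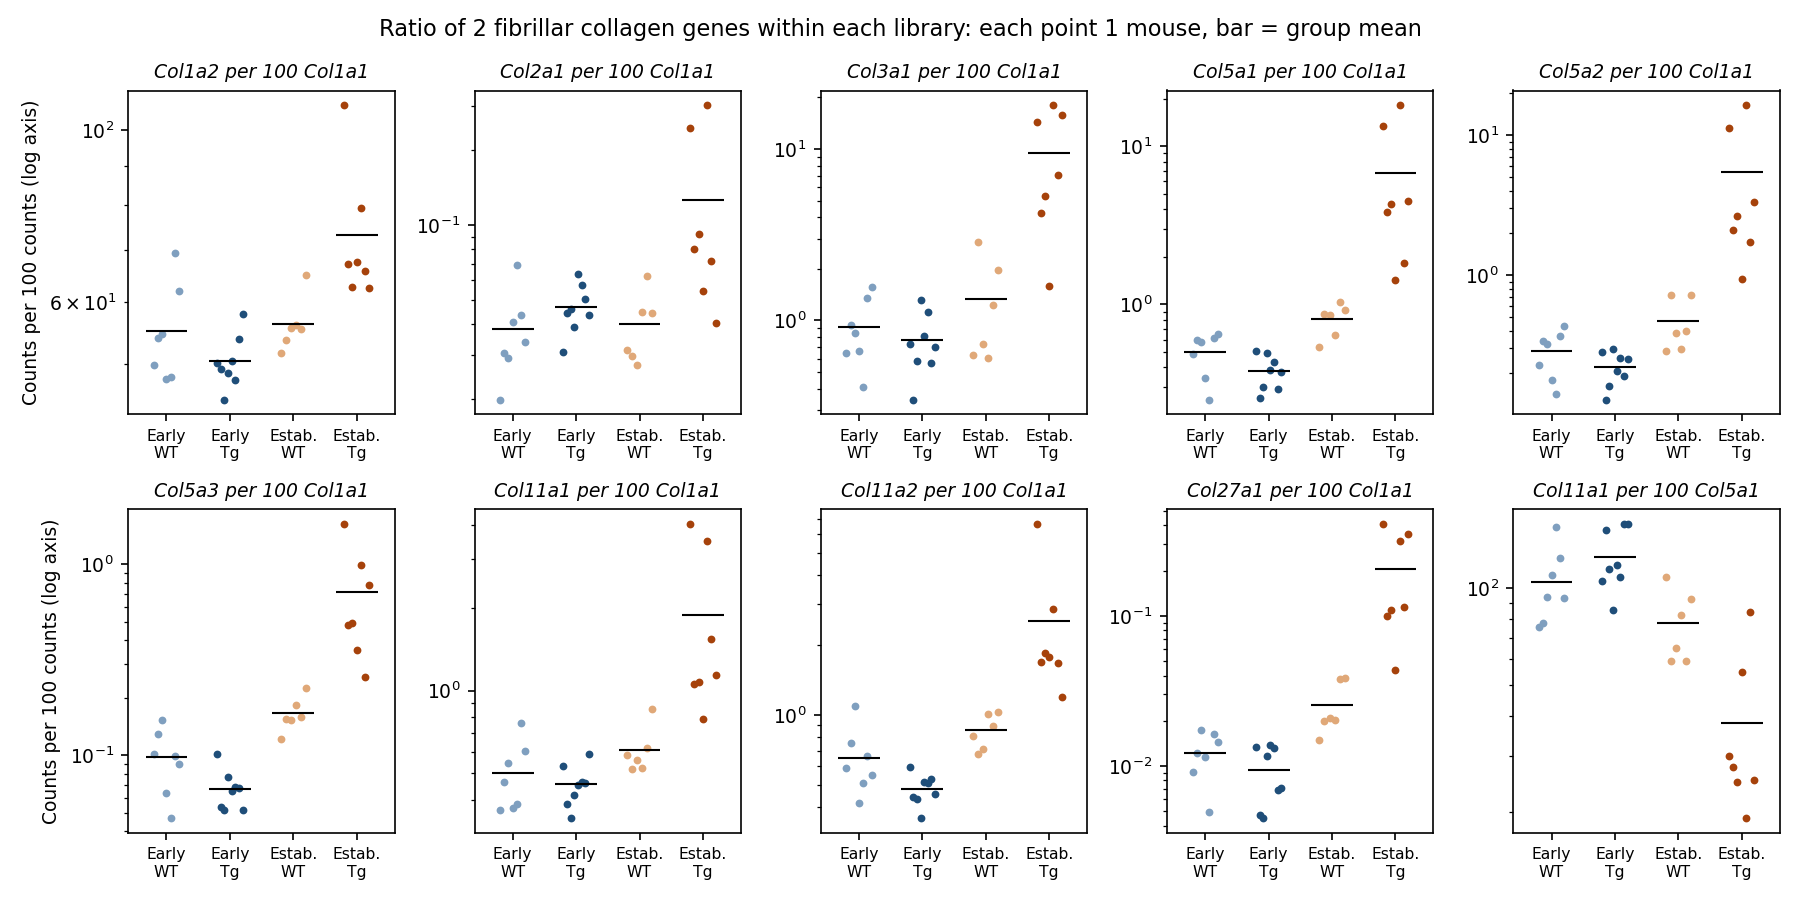
Counts of 1 fibrillar collagen gene for 100 counts of another in each library (log axis), with 1 point per mouse and a bar at the group mean. All 9 ratios to Col1a1 are higher in established Fosl-2(Tg) than in established WT tendons, from 1.28-fold for Col1a2 to 7.84-fold for Col5a2, whereas Col11a1 per Col5a1 is 2.27-fold lower.

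Levels can be compared between genes only per length, as CPM per kilobase of annotated exon. By that measure Col1a1 ranked first and Col1a2 second in every group, with means of 11186 and 3218 CPM per kilobase in established WT mice. Next came Col3a1 (97.4), followed by Col11a2 (82.6), Col5a1 (66.4), Col11a1 (33.6), Col5a2 (30.4), Col5a3 (17.2), Col2a1 (3.01) and Col27a1 (1.32). Mice overlapped between Col3a1 and Col11a2, Col11a2 and Col5a1, Col11a1 and Col5a2, and Col5a2 and Col5a3, and the other neighbours in this order did not overlap. In early mice the order was the same except that Col11a2 stood before Col3a1 in WT mice (142 against 134 CPM per kilobase), with overlap. In established Fosl-2(Tg) mice Col1a1 and Col1a2 stood at 1973 and 684 CPM per kilobase, Col3a1 at 82.5 and Col5a1 at 45.3, and Col5a1 and Col5a2 ranked above Col11a2 and Col11a1, respectively, and Col27a1 above Col2a1. Every neighbouring pair overlapped in that group. Col1a1 exceeded Col1a2 per length by a median of 3.47 in established WT and 2.87 in established Fosl-2(Tg) mice with the union of annotated exons, but by 1.65 and 1.36 with the longest transcript, because the annotated exons of Col1a2 span 12650 bases and its longest transcript 5437. The level per length is therefore coarse.

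How closely each gene followed Col1a1 from mouse to mouse was described over all 28 mice on log2 CPM after the mean of each group was subtracted. Col1a2 was the most similar of 16081 genes (Pearson r = 0.99), and Clec11a, which encodes a secreted lectin that acts on bone-forming cells (0.965), Rcn3, which encodes a chaperone of the endoplasmic reticulum (0.964), Col6a2, a chain of type VI collagen (0.962), and Mmp23, a membrane protease (0.955), came next. Among the remaining fibrillar collagens, Col11a1 had an r of 0.914, Col11a2 of 0.898 and Col5a3 of 0.858. Col2a1 and Col5a1 followed at 0.772 and 0.761, and Col27a1 (0.642), Col3a1 (0.592) and lastly Col5a2 were least similar. Without established Fosl-2(Tg) replicates 1 and 5, the 2 mice farthest from the median, the values were 0.986 for Col1a2, 0.876 for Col11a1, 0.471 for Col5a2 and 0.416 for Col3a1. All points share library and depth, and no test was attached to these correlations.

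The genes that build, process and bind fibrillar collagen were counted from lists made by function. In the early cohort none of these lists held a called gene, and genes with an unadjusted p under 0.05 numbered 1 to 3 in 4 lists and 0 among the fibril surface partners. In the established cohort, of 22 genes for folding and hydroxylation of the chains 5 were called lower and 0 higher, with a median log2 fold change of -0.47. They included P4ha1, a prolyl hydroxylase subunit (392 ± 102 CPM, n = 6, SD, in WT and 207 ± 81.8 CPM, n = 7, SD, in Fosl-2(Tg) mice, log2 fold change -0.91, FDR = 0.0473 by edgeR). Fkbp10 (165 to 82.1 CPM in the mean, FDR = 0.0207 by edgeR) and Fkbp14 (45.1 to 19.3 CPM, FDR = 0.0335), both prolyl isomerases of the endoplasmic reticulum, and the prolyl hydroxylase P3h1 (50.4 to 31.9 CPM, FDR = 0.0393) were also lower, as was Fkbp7, a further isomerase outside the naming rule. Of the 12 tested genes for propeptide cleavage and crosslinking, 4 were called, all lower. These were Loxl2, a crosslinking enzyme (650 ± 149 CPM, n = 6, SD, in WT and 236 ± 95.7 CPM, n = 7, SD, in Fosl-2(Tg) mice, log2 fold change -1.46, FDR = 0.0151 by edgeR), the N-propeptidases Adamts2 (-1.25) and Adamts3 (-0.77), and Pcolce, an enhancer of C-propeptide removal (-1.16).

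Of 14 partners on the fibril surface, 2 were called lower, the collagen-binding glycoprotein Sparc (log2 fold change -2.19, SE 0.52, FDR = 0.0292 by edgeR) and Col12a1, a collagen that attaches to fibrils (-0.75, FDR = 0.0410). Among 18 transcription factors reported to act on fibrillar collagen genes, 2 were called lower. Scx, the tendon factor scleraxis, fell from 83.5 ± 12.7 CPM (n = 6, SD) to 34.4 ± 16.9 CPM (n = 7, SD), a log2 fold change of -1.27 (FDR = 0.0444 by edgeR), and Sox6, which acts with Sox9 on cartilage genes, had -0.52 (FDR = 0.0215 by edgeR). Of 12 genes for receptors and degradation, 2 were called lower, the collagen receptor subunit Itga2 (-1.24) and the collagen-degrading protease Ctsk (-1.19), and 2 higher. The higher ones were Itga10 (0.81, FDR = 0.0340 by edgeR), another collagen receptor subunit, and the collagenase Mmp13. Mmp13 was at 1.25 ± 1.15 CPM (n = 6, SD) in WT and 205 ± 390 CPM (n = 7, SD) in Fosl-2(Tg) mice, so its spread was larger than its mean (log2 fold change 7.34, SE 1.99, FDR = 0.0444 by edgeR). Over all genes tested, 3.37% were called lower and 3.14% higher in this cohort, beside which these counts stand. The lists' medians of -0.55 for cleavage and crosslinking, -0.40 for surface partners, 0.04 for transcription factors and -0.31 for receptors and degradation stand beside a median of 0.01 over all genes tested.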

How the data were processed

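Bulk RNA-sequencing of tail tendon was analysed in 28 libraries, 1 per mouse. Per the labels and methods, rRNA was depleted, reads were mapped with STAR to GRCm39 with GENCODE release M26 and counted per gene with featureCounts. The values the authors deposited are these raw counts. The library kit does not mark strand, and strand and multi-mapping settings are not given in the sources used here. GENCODE release M39, also on GRCm39, named 25505 of the 25719 identifiers and gave the exon lengths. The 10 members and the gene lists were chosen with earlier results of these data known.

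Counts were filtered with filterByExpr (minimum count 10, minimum total 15), scaled by TMM and tested with the quasi-likelihood test of edgeR 4.0.16 in R 4.3.3, without covariates, within each cohort and in 1 fit of 4 groups, with a call at an FDR of at most 0.05. Ratios used counts plus 0.5. All 10 members, Col24a1, the 5 genes most like Col1a1 and, per list, up to 4 called genes with the largest mean CPM were named. Promoter windows held 250 bases. The fits were tested on simulated data. Alternatives were DESeq2 1.42.0, other scalings and filters, a muscle score or sex as covariate, females only, mice left out and the replicate number as a block. In the early cohort, same-numbered WT and Fosl-2(Tg) mice deviated together in all 7 pairs (r = 0.129 to 0.363), so the numbers were taken as pairs in the blocked alternatives, which changed no early call of a member or ratio. In the established cohort r was 0.0568 and -0.223 in 2 of 6 pairs and 0.296 to 0.688 in the others, so pairing was not assumed there. The block was still run as an alternative in that cohort and ended the call of Col1a1 (FDR = 0.0549 by edgeR). Values of r between differently numbered mice were not computed. Each library came from a separate mouse, so p-values measure the spread between these mice. Library totals of 9645598 to 66894396 counts set the counting error, and the standard errors from edgeR also include the spread between mice.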

Additional observations from a re-analysis of the deposited data

Results flagged for a closer look

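Samples far from the rest of their group were looked for in 100 groups of log2 values (Dixon's test at 95%), where chance gives about 1 in 20, and 8 were found. Established WT replicate 2 was high for Col3a1 (2862 CPM, next 870) and Col5a2 (722 CPM, next 321), the neighbouring genes on chromosome 1. Early WT replicate 4 was high for Col27a1 (32.0 CPM, next 17.8). Established WT replicate 6 was high for Col1a2 (65.0, next 56.1) and Col11a1 (0.856, next 0.618) for 100 Col1a1 counts. Col11a2 for 100 Col2a1 counts was high in early Fosl-2(Tg) replicate 1 (1928, next 1051) and low in established WT replicate 5 (1436, next 2268) and established Fosl-2(Tg) replicate 5 (943, next 2011).

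The genotype difference differed between the cohorts by the interaction test of edgeR for Col1a1 (-3.04 on the log2 scale), Col1a2 (-2.69), Col2a1 (-2.32), Col11a1 (-1.95) and Col11a2 (-1.63), each lower in the established cohort.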

How the results depend on the processing

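The early count of called genes was 0 in every alternative run, that of the established cohort 3 to 5 apart from leaving out mice, and Col2a1 kept its established call throughout. Leaving out 1 mouse gave established counts of 1 to 5, interaction counts of 4 to 6, WT stage counts of 0 to 1, Fosl-2(Tg) stage counts of 8 to 10, and 0 to 6 early and 7 to 11 established ratios. It moved the established log2 fold change of Col3a1 between -0.73 and 0.44, of Col5a2 between -0.40 and 0.14 and of Col27a1 between -0.52 and 0.23, the WT stage value of Col27a1 between -0.22 and 0.022, and the log2 differences of the ratios Col11a1:Col1a1 early between -0.169 and 0.00522, Col11a1:Col2a1 established between -0.11 and 0.10 and Col11a2:Col2a1 established between -0.13 and 0.20. For WT mice between stages, 4 genes were called with DESeq2, 1 with the muscle score as covariate and 4 without established Fosl-2(Tg) replicates 1 and 5, whose removal (chosen after seeing the data) left 3 called in the interaction. Over all genes tested, 929 of 18455, 780 of 16082 and 793 of 16150 were called lower in these WT settings, in that order. Compared by group medians, 0 of 14 established ratios passed (adjusted p of at least 0.0544). The replicate block left 0 early and 4 established calls and 0 of 14 early ratios, with Col5a3 (FDR = 0.0398 by edgeR) in place of Col1a1 (-3.27, FDR = 0.0549) and Col27a1 at -0.72, and the established pairing rests on numbers alone. Signs changed for Col27a1 with sex as covariate (-0.06), in the interaction without the 2 males (0.0027) and without replicates 1 and 5 (0.0914), and for Col3a1 established without those (0.15). The near-zero ratio Col11a1:Col2a1 was -0.0123 with 5 added to each count, -0.30 by medians and -0.0288 in females, and Col11a2:Col2a1 was 0.0357 by medians, 0.0724 in females and, without replicates 1 and 5, 0.18. With the longest transcript as length, 4 genes changed rank in early WT and 2 in each Fosl-2(Tg) group. The cause of these changes was not tested.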
